A study of Rattus norvegicus with 6 samples.

Results

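Hemoglobin transcripts had lower mean levels in old rats given sevoflurane than in control rats, with differences of down to -0.51 on the log2 scale that varied between probe sets and between animals. The genes described here are those of hemoglobin and of the red cell. They comprise every probe set that names a single gene whose symbol starts with Hba- or Hbb, or is Alas2 or Slc4a1. By this rule 10 of 68842 probe sets were found, for 8 genes. Of these probe sets 2 belong to alpha globin genes and 6 to beta globin genes. Each probe set summarizes the array's probes for a transcript. The members were chosen by their differences between sevoflurane and control on these same arrays, so those differences are described here and not tested.

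The arrays held hippocampal RNA of male Sprague-Dawley rats that were 18 months old. In the sevoflurane group 3 rats inhaled the anesthetic at 2.5%, carried in 100% oxygen, over 4 h. In the control group 3 rats were kept for the same time in a like chamber with 100% oxygen alone. The rats were decapitated and the hippocampus was taken 3 h after the end of anesthesia. No perfusion of the vessels is described, and both groups had breathed pure oxygen. Each value is the normalized expression on the log2 scale that the authors deposited, so a difference of -1 means that the level fell by 50%. All 11 measured markers of hippocampal neurons exceeded the background on every array. The background, taken as the median of its control probe sets, was between 3.46 and 3.96, and the member probe sets lay at least 1.96 above it on each array. Sevoflurane replicate 1 was the least like the rest, with a mean correlation of 0.986 with them across probe sets against 0.991 to 0.993, and with the smallest spread of values (SD of 1.85 against 1.93 to 2.03). Results that rest on it are therefore given with and without it. In tissue RNA, fewer red cells and less hemoglobin RNA in each cell cannot be told apart.

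Hemoglobin is the oxygen carrier of red cells and is built from alpha-type and beta-type globin chains, each of which holds a heme group. Mammalian red cells have no nucleus, but young ones, the reticulocytes, still carry globin mRNA, which makes blood left in the vessels a familiar source of globin signal in brain tissue. Globin mRNA has also been found in neurons and glia of rodents. Alas2 encodes the erythroid form of the first enzyme of heme synthesis, and Slc4a1 encodes band 3, the anion exchanger of the red cell membrane.

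The globin members lie in a pair of gene clusters. In the rat assembly GRCr8 the beta genes Hbb-bs, Hbb-b1, Hbbl1 and Hbb follow each other on chromosome 1 between 167630245 and 167663721, and the alpha genes Hba-a3 and Hba-a1 lie on chromosome 10 between 15816099 and 15842580. Slc4a1 is on chromosome 10 from 87807010 to 87823274, and Alas2 is on chromosome X from 22890650 to 22914046. Promoter windows from RefSeq (GRCr8) were found for 7 of the 8 genes. The 250 bases before the annotated start, all on the minus strand, are printed for Hba-a1 (chr10:15842581-15842830), Hba-a3 (chr10:15816944-15817193), Hbb-bs (chr1:167631631-167631880) and Hbb (chr1:167663722-167663971). They show how alike or unlike these windows are. Capitals mark matches on either strand to the CACCC element, the CCAAT box, the TATA box or its CATAAA form, and the GATA motifs searched. The letters of these motifs are given after the sequences.
Hba-a1: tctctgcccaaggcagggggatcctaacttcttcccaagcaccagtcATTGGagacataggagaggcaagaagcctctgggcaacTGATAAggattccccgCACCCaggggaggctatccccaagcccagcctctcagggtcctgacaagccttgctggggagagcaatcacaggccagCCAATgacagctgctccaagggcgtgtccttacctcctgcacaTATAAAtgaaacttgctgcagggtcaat
Hba-a3: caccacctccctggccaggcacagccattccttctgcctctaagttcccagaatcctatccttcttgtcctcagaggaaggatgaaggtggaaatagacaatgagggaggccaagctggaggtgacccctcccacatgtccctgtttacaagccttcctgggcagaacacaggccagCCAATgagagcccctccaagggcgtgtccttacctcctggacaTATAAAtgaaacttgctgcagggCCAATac
Hbb-bs: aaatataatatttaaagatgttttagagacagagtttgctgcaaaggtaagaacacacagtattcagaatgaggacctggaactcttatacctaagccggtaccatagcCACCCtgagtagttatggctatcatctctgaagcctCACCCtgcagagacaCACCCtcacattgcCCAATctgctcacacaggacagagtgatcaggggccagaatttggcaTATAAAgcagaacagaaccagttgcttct
Hbb: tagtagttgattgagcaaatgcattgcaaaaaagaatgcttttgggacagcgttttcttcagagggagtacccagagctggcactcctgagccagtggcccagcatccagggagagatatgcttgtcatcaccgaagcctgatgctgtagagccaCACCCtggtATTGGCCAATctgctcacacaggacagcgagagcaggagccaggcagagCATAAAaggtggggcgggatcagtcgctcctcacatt
The windows of Hbb-bs and Hbb-b1 were 93.6% identical, those of Hbb-bs and Hbbl1 93.3%, and those of Hbb-b1 and Hbbl1 95.7%. The window of Hbb was 61.8% identical to that of Hbb-bs, and the windows of Hba-a1 and Hba-a3 were 66.2% identical. Thus Hbb-bs, Hbb-b1 and Hbbl1 are near copies in this region, and Hbb stands apart from them. Transcript and probe sequences were not compared here, and how far the probe sets tell any of these genes apart was not tested.

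Of the motifs searched on both strands, CCAAT, the site of the CCAAT box, was in the windows of all 6 globin genes, and 34% of all 33469 promoter windows of that length hold it. TATAAA, the TATA box, was in 5 of the 6 and in 12.9% of all windows. Hbb holds CATAAA in its place, which is in 11.4% of all. CACCC, to which the erythroid factor KLF1 binds, was in 5 of the 6 globin windows, all but that of Hba-a3, and in 49.2% of all. Of the GATA motifs searched, TGATAA was in the globin window of Hba-a1 only and in 7.97% of all windows. AGATAA, held by 10.3% of all, was in no globin window, and neither was AGATAG, held by 7.73%. The form TGATAG was not searched and is not marked. It is present, as CTATCA on the strand shown, in the windows of Hbb-bs, Hbb-b1 and Hbbl1. Its share of all windows was not counted. No matches of different motifs overlapped. The start that the table gives for Alas2 lies 4800 bases inside the gene, so its window is not shown.

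The groups did not overlap for the alpha globin Hba-a3, which was the lower after sevoflurane. Its level was 8.11, 7.99 and 7.74 in control replicates 1, 2 and 3 and 7.36, 7.55 and 7.55 in sevoflurane replicates 1, 2 and 3. The group means were 7.95 ± 0.19 (SD, n = 3) and 7.49 ± 0.11 (SD, n = 3), a difference of -0.46 with a standard error of 0.13, or 27.3% lower. The gap between the lowest control array and the highest sevoflurane array was 0.19. The other alpha gene, Hba-a1, showed a smaller difference and overlapping groups. It was at 11.15, 11.32 and 10.86 in the control arrays and at 10.91, 10.96 and 10.91 in the sevoflurane arrays, so that control replicate 3 lay below all of the latter. Its difference was -0.18 with a standard error of 0.13 and was -0.04 after quantile normalization. A further probe set that names both Hba-a2 and Hba-a1, and is not a member for that reason, was at 11.94, 12.20 and 11.71 in controls and at 11.62, 11.75 and 11.78 after sevoflurane.

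**Figure D1:**
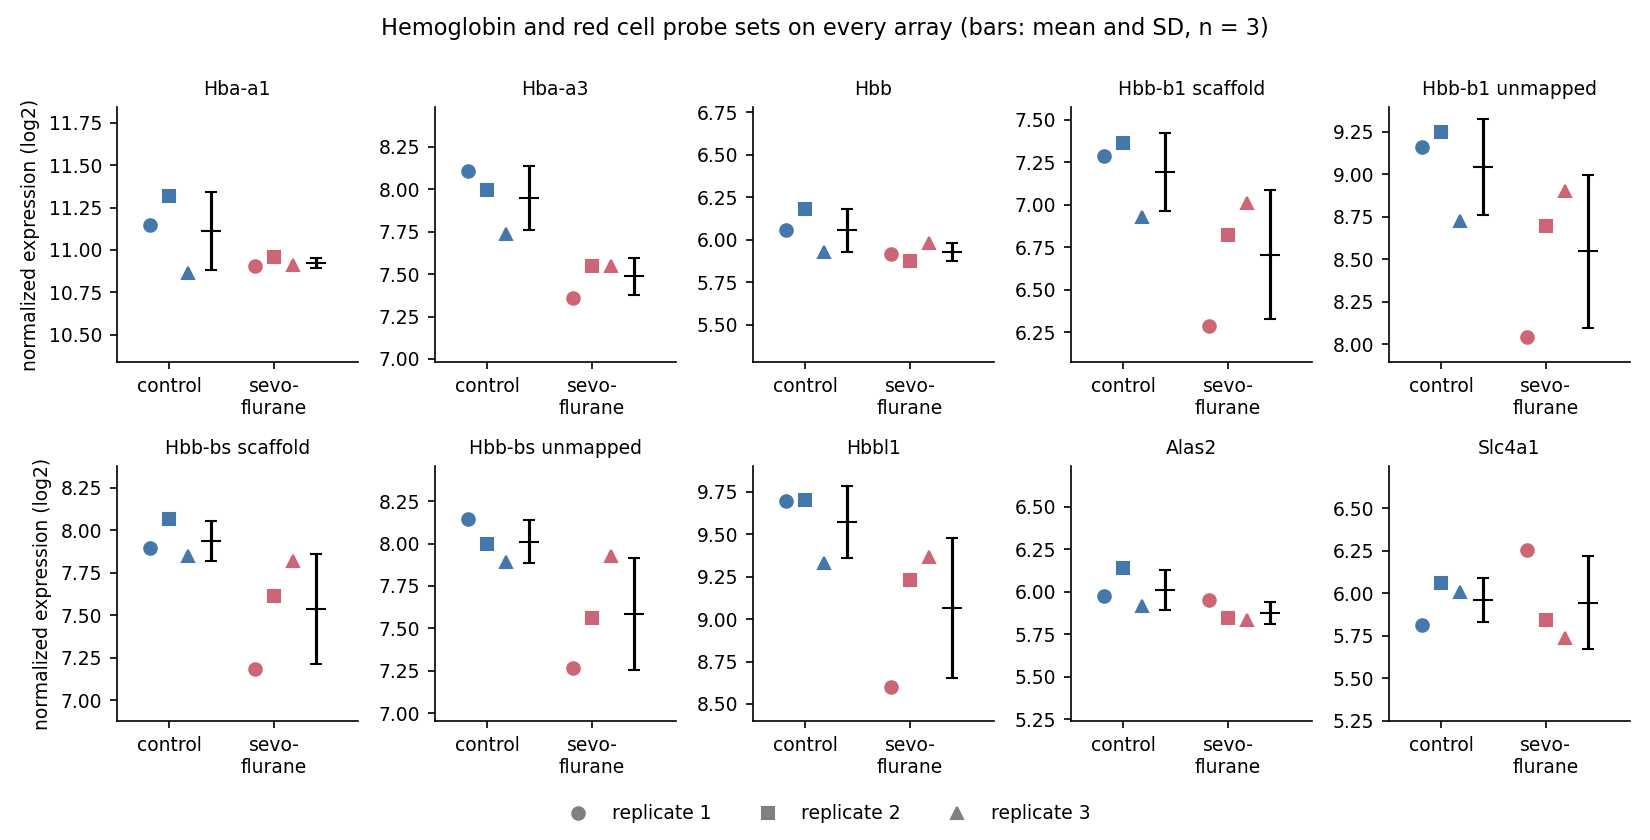
Normalized expression (log2) of each of the 10 member probe sets, with 1 point for each array and the mean and SD of 3 arrays beside them. Every panel spans 1.5 on the log2 scale, and the groups are separate for Hba-a3 and for the scaffold probe set of Hbb-bs.

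The beta globins comprised a group of 5 probe sets with like differences and Hbb, which differed less. Hbb-bs and Hbb-b1 each have a probe set on an unplaced scaffold and an unmapped one by their identifiers. These are here called the scaffold and the unmapped probe set, and each such pair is annotated to the same gene. The scaffold probe set of Hbb-bs was at 7.89, 8.07 and 7.85 in the control arrays and at 7.18, 7.61 and 7.82 in the sevoflurane arrays. Its groups did not overlap, but the gap was only 0.03. The difference was -0.40 with a standard error of 0.17. The unmapped probe set of Hbb-bs was at 8.14, 7.998 and 7.89 in controls and at 7.27, 7.56 and 7.93 after sevoflurane. Here sevoflurane replicate 3 lay above control replicate 3, and the difference was -0.43 with a standard error of 0.17.

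Hbb-b1 showed the same order of the sevoflurane arrays. Its scaffold probe set was at 7.29, 7.36 and 6.93 in controls and at 6.28, 6.82 and 7.01 after sevoflurane. Its unmapped probe set was at 9.16, 9.25 and 8.72 in controls and at 8.04, 8.70 and 8.90 after sevoflurane. In both, sevoflurane replicate 3 exceeded control replicate 3, and the differences were -0.49 and -0.50 with standard errors of 0.20 and 0.23. Hbbl1, a beta-like globin gene, had a difference of -0.51 with a standard error of 0.21, and of -0.27 without sevoflurane replicate 1. It was at 9.69, 9.70 and 9.33 in controls and at 8.60, 9.23 and 9.37 after sevoflurane, and the groups overlapped by 0.04 only.

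Hbb was at 6.06, 6.18 and 5.93 in the control arrays and at 5.92, 5.88 and 5.98 in the sevoflurane arrays. Its difference of -0.13 was close to its standard error of 0.11. Alas2, the heme synthesis gene of red cells, was at 5.97, 6.14 and 5.92 in controls and at 5.95, 5.84 and 5.84 after sevoflurane. The groups overlapped through sevoflurane replicate 1, and the difference was -0.13 with a standard error of 0.11. Slc4a1 did not share the pattern of the globins. It was at 5.81, 6.06 and 6.01 in controls and at 6.26, 5.84 and 5.74 after sevoflurane. The difference was -0.02 with a standard error of 0.16. Its highest value was on sevoflurane replicate 1, where most beta globins were lowest and the background was highest, at 3.96. Slc4a1 lay 2.21 to 2.35 above the background on each array, and the part of the background in its values was not tested.

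All 10 member probe sets had a negative difference, against 46.5% of all probe sets tested, and their median was -0.41 against 0.01 over all. In 2 of the 10, Hba-a3 and the scaffold probe set of Hbb-bs, every sevoflurane array was below every control array, which was so for 2.35% of all probe sets, and 3.12% did not overlap in the other direction. Since the genes were chosen with this comparison known, nothing is read from these shares, and the probe sets of one gene or of near copies are not separate observations. No probe set of the array passed limma's test after Benjamini-Hochberg adjustment over all of them (smallest adjusted p = 0.184, with 1108, or 1.61%, at an unadjusted p under 0.05), nor did any in the one-way F-test that the methods name, while limma with array weights called 23, or 0.0334%.

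The size of the difference varied between animals. Relative to their own control means, the 5 beta globin probe sets other than Hbb were at -1.001 to -0.74 on sevoflurane replicate 1, at -0.45 to -0.33 on sevoflurane replicate 2 and at -0.21 to -0.09 on sevoflurane replicate 3. Hba-a3 was at -0.59, -0.40 and -0.40 on the same arrays, and Hba-a1 at -0.20, -0.15 and -0.20. Thus these 5 beta globin probe sets spanned a wide range after sevoflurane, while the alpha globins were more even in the deposited values. Hbb was even too, at -0.14, -0.18 and -0.07. After quantile normalization Hba-a3 was at -0.52, -0.41 and -0.45, but Hba-a1 was less even, at 0.14, -0.07 and -0.21. Control arrays differed too. Control replicate 3 was the lowest control array for all 8 globin probe sets, with a median of -0.23, and for the 5 beta probe sets it was at -0.32 to -0.09, a range that overlaps with that of sevoflurane replicate 3 and ends just above that of sevoflurane replicate 2.

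**Figure D2:**
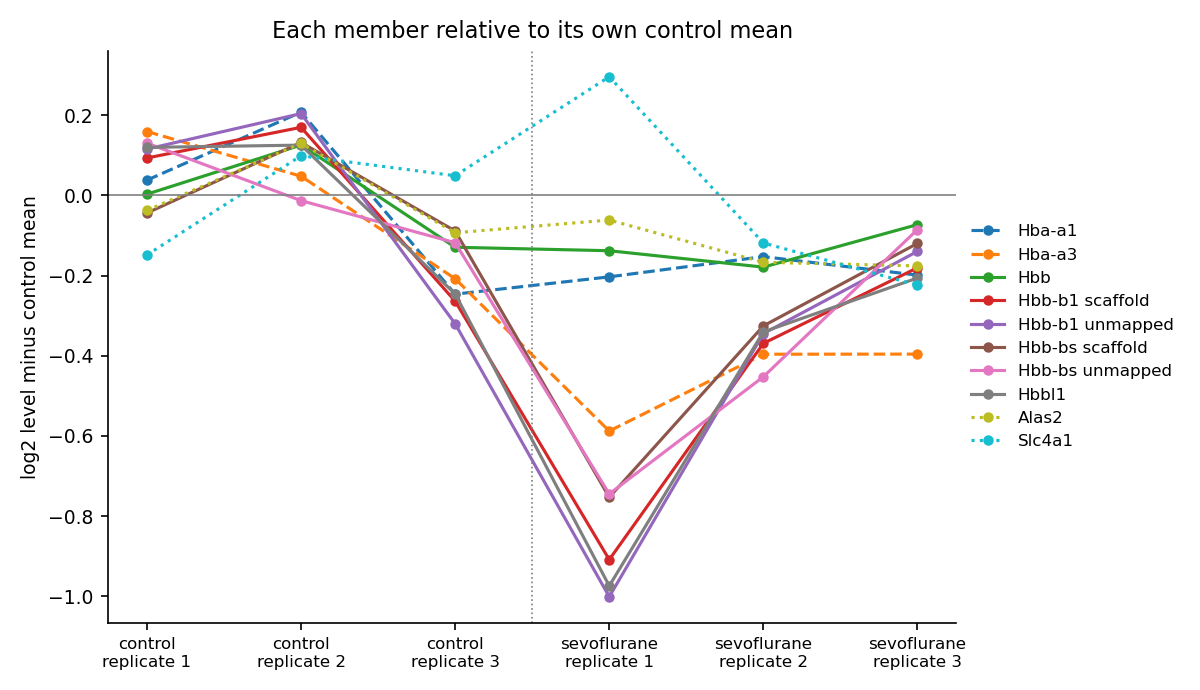
Level of each member minus its own control mean (log2) on the 6 arrays. Lines join the values of a probe set and carry no order in time. The 5 lowest beta globin probe sets are at -1.001 to -0.74 on sevoflurane replicate 1, where Slc4a1 is at 0.30.

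Without sevoflurane replicate 1 the differences of the 5 beta globin probe sets shrank. They were -0.22 and -0.27 for the scaffold and unmapped probe sets of Hbb-bs, -0.27 and -0.24 for those of Hbb-b1 and -0.27 for Hbbl1. Hba-a3 was at -0.40 and Hba-a1 at -0.18 without this array, close to their values with it. The smaller differences depended on the control arrays. Hba-a1 was at -0.08 without control replicate 2 and at -0.31 without control replicate 3, and without control replicate 2 Hbb and Alas2 were at -0.07 each. Slc4a1 was above 0, by at most 0.09, with replicate 2 or replicate 3 of either group left out. Array weights, which gave sevoflurane replicate 1 the smallest weight of 0.17, put Hba-a3 at -0.30 and Hba-a1 at -0.05, and the 5 beta probe sets at -0.33 to -0.18, with the smallest value for the unmapped probe set of Hbb-b1. Quantile normalization of the deposited values, which gives all arrays the same distribution, left Hba-a3 at -0.46 and the 5 beta probe sets at -0.53 to -0.42. On those values sevoflurane replicate 1 was still the lowest array for all 5, and the groups of Hba-a3, both Hbb-bs probe sets, Hbbl1 and Alas2 did not overlap. The share of all probe sets that were lower without overlap was then 3.62%.

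**Figure D3:**
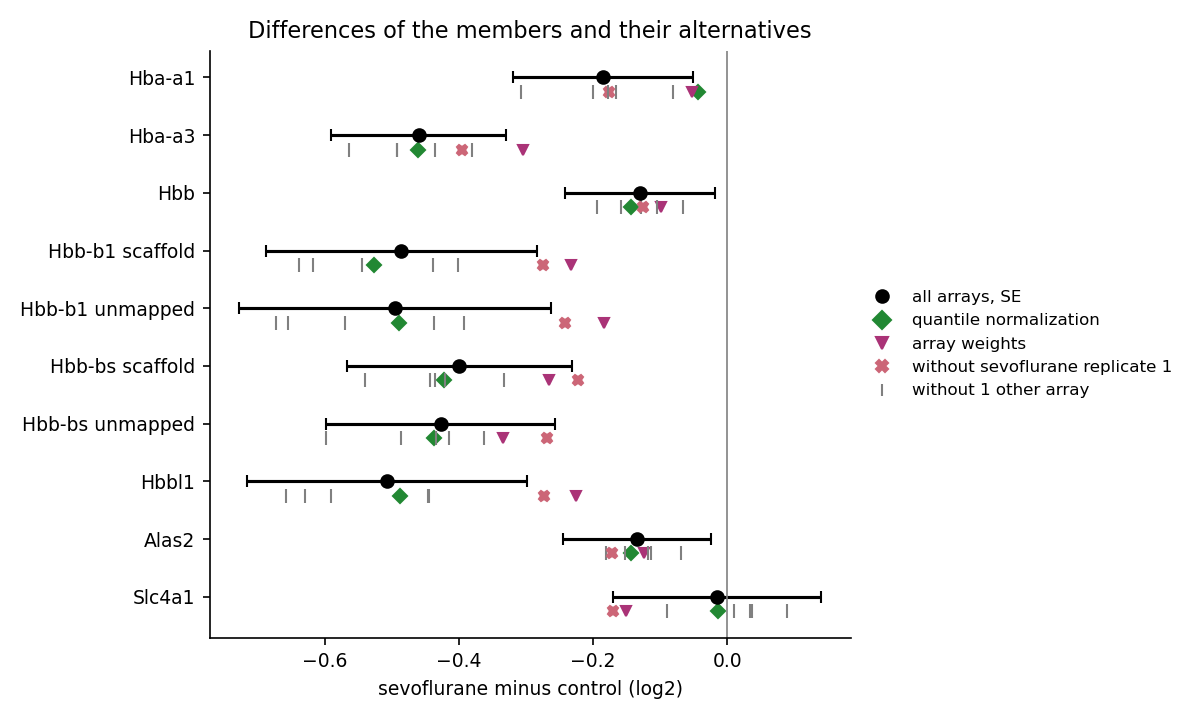
Difference between sevoflurane and control (log2) of each member with its standard error over all 6 arrays, and below it the value under quantile normalization, under array weights and with 1 array left out. Every globin value is below 0, and those of the 5 lowest beta probe sets lie at -0.27 to -0.22 without sevoflurane replicate 1.

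Of the members, the 5 beta globin probe sets other than Hbb varied together most closely within the groups. With the group means removed, which leaves out the difference by which they were chosen, the deviations of the 5 beta probe sets correlated with each other at r between 0.86 and 0.9998 over the 6 arrays. The alpha genes followed them less closely, at r between 0.19 and 0.83, and Hbb correlated with the other globins at 0.38 to 0.87. Slc4a1 was at -0.90 to -0.02 with the globins and Alas2 at -0.34 to 0.76. Since Slc4a1 kept a nearly constant distance from the background of each array, its r may reflect the background, which was not tested. These coefficients are descriptions over 6 arrays with only 4 free values, and those of the beta probe sets share sevoflurane replicate 1. The promoter windows of their genes are near copies, and how alike their transcripts or probes are was not tested. For Hba-a3 with the unmapped probe set of Hbb-bs, r was 0.68 over all arrays, 0.54 without that array and 0.49 after quantile normalization.

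The unmapped probe set of Hbb-bs was compared with 10019 other probe sets that name a single gene, lie above the median level and vary within groups. The members and dim red cell genes such as Ahsp and Rhag, named below, were thereby left out. That the 8 most like Hbb-bs include no red cell gene was therefore largely set by this choice. The first 8 were Evi2b, Znf624l, the transcription factor Foxp1, the microRNA gene Mir665, the acyl-CoA thioesterase Acot3, the neuronal serpin Serpini1, the interferon-induced Mx2 and the arginine methyltransferase Prmt3, with r between 0.993 and 0.999 over the 6 arrays. All 8 were lowest on sevoflurane replicate 1. With Hba-a3 their r was 0.60 to 0.74, and the 100 genes most like Hbb-bs and the 100 most like Hba-a3 had 0 in common, that is 0% of each list. Such values close to 1 were frequent, since the gene in place 100 still had an r of 0.96. From the lists described next, Fech, which inserts the iron into heme, the endothelial Itm2a and the hippocampal Dkk3 were among those 100 for Hbb-bs, with r of 0.98, 0.98 and 0.98. They were picked out after their values were seen.

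Other genes of red cells, several of them close to background and others bright, had no lower median after sevoflurane over all 6 arrays. Ahsp and Kel lay 0.62 to 0.97 and 0.76 to 0.87 above the background, where a decrease has little room to show. Add2, Dmtn and Sptb lay 4.85 to 5.41, 4.68 to 5.16 and 4.24 to 4.97 above it. How much of the signal of these genes came from red cells was not tested. The median of the list is therefore not read as a measure of red cells. Of 32 measured genes of the red cell membrane and of red cell maturation, none had an unadjusted p under 0.05 from limma, in either direction, where 0.745% of all probe sets were lower and 0.864% higher by that rule. Their median difference was 0.03, against 0.01 over all probe sets, and 9 of the 32 were negative. Without sevoflurane replicate 1 the median was -0.10, against -0.04 over all probe sets. Klf1 and Gata1, transcription factors of red cell development, had differences of 0.07 (standard error 0.16) and 0.14 (standard error 0.20). Ahsp, the chaperone of free alpha globin, was at -0.11 (standard error 0.13), Epb42, a protein of the membrane skeleton, at 0.01 (standard error 0.12), and Rhag, a channel of the red cell membrane, at 0.16 (standard error 0.16). The one-way F-test called none of the 32 either, and array weights and the fit without sevoflurane replicate 1 each called Trim58, an E3 ligase of late red cell maturation, as lower, at -0.27 and -0.31. In these fits 9.45% and 4.08% of all probe sets were called lower.

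The embryonic and minor globin genes showed little difference. Those named next lay only 0.86 (Hbg1) to 1.77 (Hbe2) above the background, where a decrease has little room to show. Hbz, an embryonic alpha-type globin, had a difference of 0.04, Hbe1 and Hbe2, embryonic beta-type globins, of 0.00 and 0.09, Hbg1 of -0.05 and Hbq1b of 0.05, with unadjusted p from 0.598 to 0.995 from limma. Of the globins outside red cells, cytoglobin (Cygb) was higher after sevoflurane. It was at 7.45, 7.83 and 7.54 in the control arrays and at 7.93, 7.92 and 7.99 in the sevoflurane arrays, without overlap. Its difference was 0.34 with a standard error of 0.13 (unadjusted p = 0.0260 from limma, adjusted p = 1), and it no longer passed without control replicate 1, without control replicate 3 or without sevoflurane replicate 2 or 3. Neuroglobin (Ngb) and myoglobin (Mb) were at -0.07 each and did not pass. Cygb thus made up the whole count of 1 higher and 0 lower among 9 measured genes of this list, whose median was 0.00.

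None of 15 genes of heme synthesis passed at an unadjusted p under 0.05 from limma (median 0.05, 3 negative). Alas1, the form of the first enzyme found outside red cells, was at 0.13 (standard error 0.11), Fech at 0.04 (standard error 0.13) and the mitochondrial iron carrier Slc25a37 at 0.01 (standard error 0.11). Of 12 genes of heme and hemoglobin clearance none passed over all 6 arrays (median 0.08, 2 negative). Without sevoflurane replicate 1, Flvcr1 of this list passed at 0.31 (unadjusted p = 0.0126 and adjusted p = 0.794 from limma). In that fit 1.93% of all probe sets were called higher. Hmox1, which opens the heme ring and is induced by free heme, was at 6.47, 6.60 and 6.53 in controls and at 6.77, 6.54 and 6.62 after sevoflurane, a difference of 0.11 (standard error 0.11). The hemoglobin scavenger receptor Cd163 was at 0.14 (standard error 0.13), haptoglobin (Hp) at 0.09 (standard error 0.14) and hemopexin (Hpx) at 0.07 (standard error 0.13). The one-way F-test called 1 gene in each of these 2 lists, Tmem14c and Mrc1, both higher, at 0.12 and 0.13, where it called 1.45% of all probe sets higher. None of 15 iron genes passed (median 0.03, 7 negative). The transferrin receptor Tfrc, through which cells take up iron, was at -0.36 (standard error 0.19) and ceruloplasmin (Cp), a copper ferroxidase, at 0.45 (standard error 0.22). Cp passed without sevoflurane replicate 1 (0.72, unadjusted p = 0.000344 and adjusted p = 0.654 from limma), where 1.93% of all probe sets were called higher. Without sevoflurane replicate 2, Tfrc passed at -0.53 and Heph at 0.47 (unadjusted p = 0.0185 and 0.0145 from limma), neither of them after adjustment. In that fit 431 of 68842 probe sets were called lower and 709 higher.

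**Figure D4:**
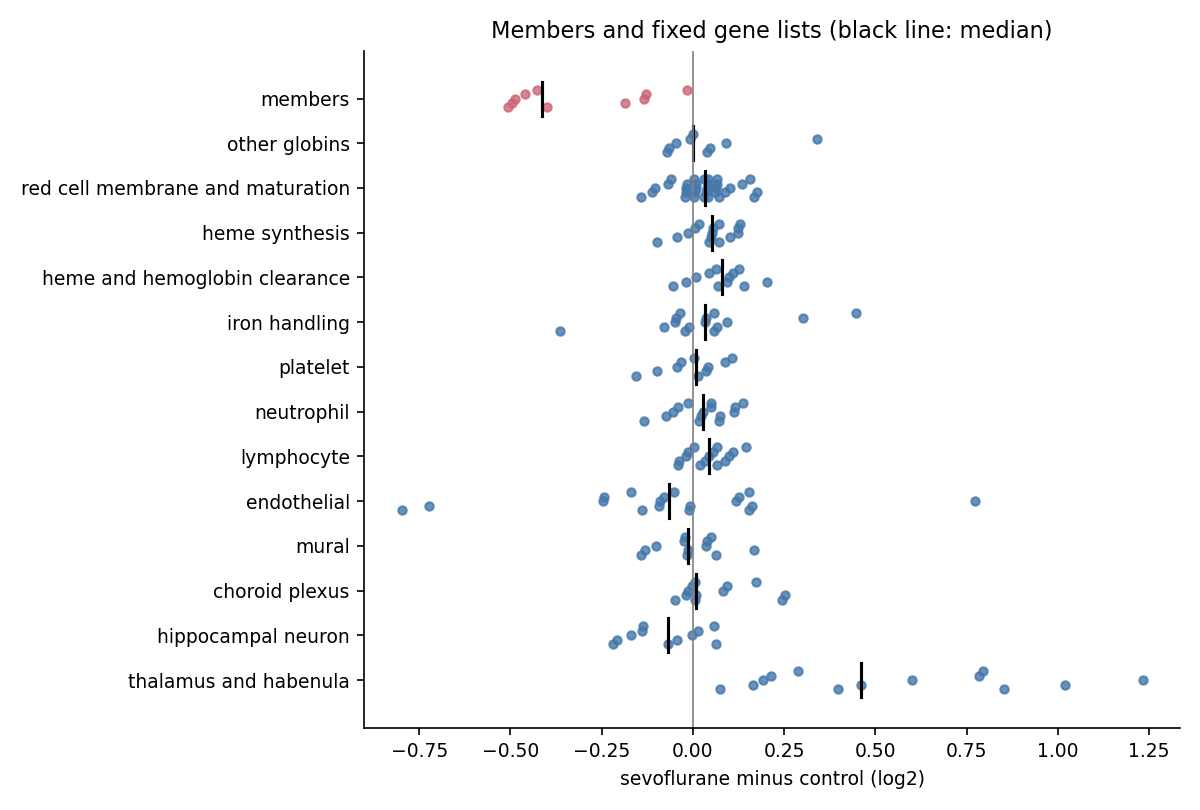
Difference between sevoflurane and control (log2) of each member probe set and of each measured gene of 13 lists, with the median of each as a black line. The members have a median of -0.41 and the red cell membrane and maturation genes of 0.03. How much of the signal of the latter came from red cells was not tested. The thalamus and habenula markers lie to the right at 0.46.

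No marker of other blood cells passed over all 6 arrays. None of 10 platelet, 15 neutrophil and 15 lymphocyte markers had an unadjusted p under 0.05 from limma or the one-way F-test, and their medians were 0.01, 0.03 and 0.04. Without sevoflurane replicate 1 these medians were -0.15, -0.08 and -0.11, against -0.04 over all probe sets. Array weights called the platelet chemokine Ppbp at -0.21 and the neutrophil protease Mmp9 at -0.29, in the fit that called 9.45% of all probe sets lower. On sevoflurane replicate 1 the means of these lists lay 0.27, 0.23 and 0.32 above their control means, while the beta globins were at their lowest there. That array also had the highest background, 3.96 against 3.46 to 3.71 on the others, and the highest median of all probe sets, 5.76 against 5.52 to 5.66, and the part of this in the list means was not tested. The summed level of the platelet markers, on the linear scale, was 431 to 532 in controls and 439 to 603 after sevoflurane, that of the neutrophil markers 717 to 857 and 739 to 936, and that of the lymphocyte markers 596 to 701 and 586 to 811. Several of these markers were close to background. Ppbp lay only 0.07 to 0.54 above it, Clec1b 0.30 to 0.53, Cd3g 0.37 to 0.58 and S100a8 0.64 to 0.94. Others lay further above, such as Gp9 at 2.57 to 2.91. A decrease of the dim markers has little room to show, and the part of the background in the sums was not tested.

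Markers of the vessel wall were mixed. Of 18 endothelial markers 2 were lower and 1 was higher by limma's unadjusted p under 0.05 (median -0.06, 12 negative). By that rule 0.745% of all probe sets were lower and 0.864% higher, and none of the 18 passed after adjustment. Itm2a was at 8.98, 8.94 and 8.82 in controls and at 7.78, 8.15 and 8.42 after sevoflurane. Slco1c1, a thyroid hormone transporter, was at 8.62, 8.43 and 8.74 and at 7.48, 8.01 and 8.12. Mfsd2a, a lipid transporter of the barrier, was higher on every sevoflurane array, with a difference of 0.77. The order of the sevoflurane arrays seen in the beta globins was shared by Itm2a, Slco1c1, Mfsd2a, Abcb1a and Tek. It was not particular to Itm2a, and other markers, such as Kdr, Cldn5 and Pecam1, were highest on sevoflurane replicate 1. The summed endothelial level was 2927 to 3196 in controls and 2559 to 2969 after sevoflurane, and all 18 markers were above background. Of 12 mural markers none passed (median -0.01), and their sum was 1515 to 1591 and 1379 to 1598.

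Markers of neighbouring brain regions also differed between the groups. Of 13 markers of thalamus and habenula, which border the hippocampus, 7 were higher and 0 lower by limma's unadjusted p under 0.05 (median 0.46). Over all probe sets, 0.864% were higher and 0.745% lower by that rule. None of the 13 passed after adjustment (adjusted p = 0.849 from limma for Prkcd). The summed level of the 13 was 1756 to 1827 in controls and 2133 to 3846 after sevoflurane. It was highest on sevoflurane replicate 2, not on replicate 1 where the beta globins were lowest. Among them Prkcd had a difference of 1.23 and Slc17a6 of 1.02. Of 12 choroid plexus markers Cldn2 was higher, by 0.24, but did not pass with any array left out, and Kcnj13 was not above background on every array (sum 518 to 687 and 515 to 653). The 11 hippocampal neuron markers had a median of -0.07 and none passed (sum 13133 to 14702 and 12370 to 14113). The part of these regional, blood cell and vessel wall markers in the globin differences was not tested.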

How the data were processed

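Hippocampal RNA of 3 sevoflurane and 3 control rats was hybridized to 1-colour Clariom D Pico arrays, and groups were taken from the submitters' labels. The authors deposited normalized log2 values, 1 for each probe set and array. Affymetrix Expression Console 1.4.1 is given in the notes of the submitters, as are MAS5 and RMA with no role for either, so the method behind the scale is not settled. A normalization shared by all arrays can hide a shift common to most transcripts. Of 70580 probe sets, 1738 controls were left out and 68842 were tested with no filter on level, of which 23446 name 1 gene, 505 several and 44891 none in the platform annotation of this array, whose symbols can be old. The file has 0 columns that belong to no sample, and 0 pairs of arrays were identical.

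Groups were compared over all probe sets by a two-sided moderated test (lmFit and eBayes of limma 3.58.1, run under R 4.3.3) with Benjamini-Hochberg adjustment. The members, lists and tests were chosen with earlier results of these data known. Genes were named by these rules: every member, up to 4 genes of each list with the smallest unadjusted p under 0.05, and the 8 genes most like Hbb-bs. Red cell, heme and iron genes that did not pass were named for their role. Where several probe sets name a gene of a list, the brightest on average was used. The fit was tested on simulated data for sevoflurane against control over 68842 probe sets. An exact permutation test of 3 arrays against 3 cannot go below 0.1. The replicate numbers do not pair the animals by the labels. The alternatives were quantile normalization, centring on the median, array weights, a replicate block, another variance prior, the methods' one-way F-test, a filter on dim probe sets, each array left out and the mean of probe sets per gene. Quantile normalization for single arrays and for the correlation was added after the data were seen. Promoter windows came from RefSeq (GRCr8) and were aligned with Biopython 1.88, and figures were drawn with matplotlib 3.10.9.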

Additional observations from a re-analysis of the deposited data

How the results depend on the processing

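All 84 alternative values of the 8 globin probe sets were below 0, as were those of Alas2, while Slc4a1 was above 0 in 4. Of the 104 alternative values of the members, 103 moved by less than 1 SD between replicates, and the exception was Hba-a3 at -0.30 with array weights. Leaving out 1 array cannot move a difference by that much, and the replicate block leaves it unchanged. The count therefore says little about stability. The unmapped probe set of Hbb-b1, for example, went from -0.50 to -0.24 without sevoflurane replicate 1. The deviations of Hba-a3 and Hbb-bs correlated at 0.83 by Spearman's rho, at 0.86 with the group means kept, at 0.54 without sevoflurane replicate 1 and at 0.49 after quantile normalization. With the group means kept, the r of Evi2b, Acot3, Prmt3, Mx2 and Znf624l with Hbb-bs was 0.43, 0.60, 0.73, 0.84 and 0.89.

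The count of 1108 probe sets at an unadjusted p under 0.05 was 2096 with quantile normalization, 9566 with array weights, 1735 with the one-way F-test, 672 with the filter on dim probe sets and 490 with the replicate block, and between 624 and 4138 with 1 array left out. Without sevoflurane replicates 1 and 3 it was 4138 and 2321, and without control replicates 1 and 3 it was 624 and 627. With array weights 3063 were higher and 6503 lower, and without sevoflurane replicate 1 it was 1332 and 2806. The 3766 probe sets without overlap became 6670 to 16444 with 1 array fewer. Same-numbered arrays deviated together at r of -0.59, -0.29 and 0.03, so the numbers were not treated as pairs, and the replicate block gave 0 genes in the lists of other globins and choroid plexus.

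Array weights called 3 genes of other globins (Ngb, Cygb and Mb), 3 of iron handling, 8 endothelial, 12 thalamus and habenula and 2 choroid plexus genes, and 1 each of red cell membrane and maturation, heme synthesis, heme clearance, platelet, neutrophil, mural and hippocampal neuron genes. The one-way F-test called 1 in heme synthesis, 1 in heme clearance and 4 in thalamus and habenula, and the other variance prior called 0 in choroid plexus. With 1 array left out the counts ranged from 0 to 2 for other globins, from 0 to 1 for red cell membrane and maturation, heme clearance, choroid plexus and hippocampal neurons, from 0 to 2 for iron handling and from 3 to 5 for endothelial genes. The 5 endothelial genes without sevoflurane replicate 1 were Kdr, Tie1, Slco1c1, Itm2a and Mfsd2a. Signal close to background and the 3 arrays in each group limit what can be seen.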
